A study of Homo sapiens with 16 samples.

Results

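The stretches of RNA that carried the top peak score in every list of a PABPC1 RNA immunoprecipitation study are described here as a constant core. Same-strand peaks of all 8 deposited lists were merged into one region wherever they overlapped by at least 1 bp, and a region was kept where each of the 8 lists had at least 1 peak with a score of 3100 or more. This left 872 core regions of 36802 regions, or 2.37%. They were 8.02% of the 10872 regions that had a peak in all 8 lists. The members were chosen by these scores, so the scores and their presence in every list describe the choice and test nothing.

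PABPC1 is the main cytoplasmic poly(A)-binding protein. It coats the poly(A) tail at the 3' end of mRNAs, contacts the translation initiation machinery at the cap and takes part in the control of mRNA decay. Arsenite is an oxidative stressor under which translation initiation is held back and untranslated mRNAs, with PABPC1 among the proteins bound to them, gather in cytoplasmic bodies called stress granules. RNA immunoprecipitation recovers the RNA that comes down with a tagged protein, and a peak caller then marks stretches of the genome with many reads.

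The cells were H1299, an established human lung carcinoma line, that stably expressed PABPC1 with a Myc tag, in its wild-type (WT) form or in the K512R form, in which arginine takes the place of a lysine. RNA was brought down through the tag after treatment with or without 500 µM sodium arsenite (AS). The sources used here do not give the number of clones in the stable lines, or whether the cells kept their own PABPC1. Of 16 samples, 8 had a list of peaks, and these form 4 pairs of replicates. The 8 samples titled K512R were not analysed here.

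The condition in the sample record and that in the list's name conflict for 6 of the 8 lists. The record has pair C as the immunoprecipitate (IP) of AS-treated WT cells, while the name says K512R. In pair A, the single pair without a conflict, the record has the IP of WT cells without AS and the name says WT. The record has pair D as input RNA, taken without precipitation, of AS-treated WT cells, while the name says K512R and AS. For pair B the record gives input RNA of WT cells without AS, while the name says WT and AS. Groups follow the record. The contrast of C and A with D and B is therefore IP against input by the record and no AS against AS by the names, and that of C and D with A and B is AS against no AS by the record and K512R against WT by the names. C1 and C2 stand for replicates 1 and 2 of pair C, and so on. Nothing in the labels says that replicates came from separate cultures, so p-values measure the spread between these lists, which may be technical. The lists held 19953 to 25111 peaks each and no read counts, so depth is unknown.

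The top score marked one value rather than a range. A score of exactly 3100 was held by 1890 to 2243 peaks per list, while 60 to 81 peaks per list had a higher score. The highest score of any list, 3233.06, equals -10 times the log10 of the smallest number that double-precision arithmetic can hold, rounded to 2 decimals. The sources used here do not say whether a score of exactly 3100 ranks above or below the few higher ones.

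All 872 core regions had a lowest score over the 8 lists of exactly 3100, and in 843 of them the best score was exactly 3100 in every list. Scores therefore give no order among the core regions. Just outside the threshold lay a region on chromosome 5 at 1801496 to 1801663 (plus strand, 168 bp), with a score of 3098.16 in list C1 and 3100 or more in the other lists. A region on chromosome 19 at 39898383 to 39900052 (plus strand, 1670 bp) missed it through a score of 3084.06 in C1. In all, 23 regions had a peak in every list and a lowest score from 3000 to under 3100.

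Most regions that reached the top score anywhere did not reach it everywhere. At least 1 list reached 3100 in 3728 regions, of which the core was 23.4%. A further 812 regions reached it in exactly 4 lists. Of these, 361 did so in the 4 lists of C and A and 357 in the 4 lists of D and B, which leaves 94 for all other sets of 4 lists. By contrast, 3 regions reached it in the 4 lists of C and D alone and 1 in those of A and B alone. These counts use the score and are a description.

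**Figure D1:**
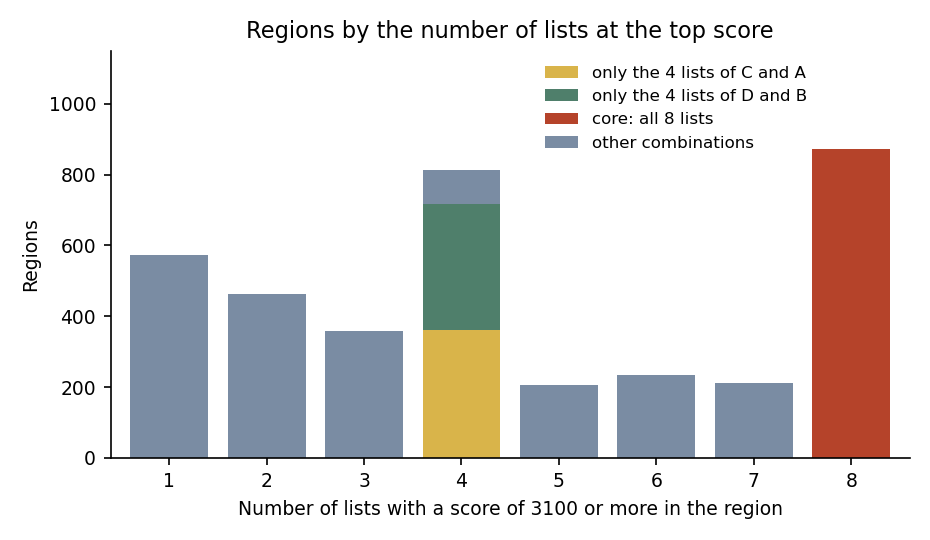
Number of regions (y axis) by the number of lists, from 1 to 8, in which the region reached a score of 3100 or more (x axis). The bar at 8 is the core of 872 regions, and the bar at 4 is made up mostly of 361 regions at that score in C and A alone and 357 in D and B alone.

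The regions at the top score in one set of 4 lists were seldom absent from the others. Of the 361 in C and A, 321 had a peak in all 8 lists and 8 had none in D and B. Of the 357 in D and B, 315 had a peak in all 8 lists and 12 had none in C and A. Within the 4 lists of C and A, both peak ends were identical in 89.8% of the 864 core regions with 1 peak in each, against 87.7% of the 358 such regions of the first set. Within the 4 lists of D and B the shares were 88.0% of 864 core regions and 85.4% of 356. These differences were not tested. Median width was 346 bp in the core, against 328 bp in the regions at the top score in C and A alone and 230 bp in those of D and B alone.

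Which list fell short also varied. In 212 regions exactly 7 lists reached 3100, and the list that did not was B2 in 46, C1 in 41, D1 in 30, B1 in 27, C2 in 24, A1 in 22, A2 in 15 and D2 in 7 of them. No pair supplied the low list in most cases. The number of peaks at 3100 or more was 1950 in B2, 1976 in C1, 1979 in A1 and 2309 in D2.

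The core occupied nearly the same length of genome in every list. Core peaks covered 426861 and 430639 bp in C, 428211 and 426439 bp in A, 426504 and 425515 bp in D, and 430767 and 426731 bp in B. The highest of these was 1.01 times the lowest. In the other 10000 regions with a peak in all 8 lists the covered length was 3.37 to 3.50 Mb, a ratio of 1.04. Over all peaks, which include those of regions missing from some lists, it was 6.70 to 9.91 Mb, a ratio of 1.48. The core held 875 to 878 peaks per list, 3.48% to 4.40% of a list's peaks, and made up 4.34% to 6.37% of its covered length. It took 37.9% to 44.9% of the peaks at 3100 or more. Because a region enters only if every list has a top-scored peak in it, the near constancy of the number of peaks, and with it much of that of the covered length, follows from the rule.

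Core regions were wider than the other 10000 regions with a peak in all 8 lists. Their width had a median of 346 bp and a middle range, from the 25th to the 75th percentile, of 181 to 633 bp. The other regions had a median of 198 bp and a middle range of 123 to 421 bp. Up to 200 bp wide were 28.3% of the core and 50.6% of the others, and over 1000 bp 11.8% (103 regions) and 7.52%. The difference in width has no test here, since a wide peak can hold more reads and the rule used the score. Core regions lay on the plus strand in 447 cases and on the minus strand in 425. None of the 872 overlapped a peak of any list on the other strand, where 78 of all 36802 regions (0.212%) did.

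**Figure D2:**
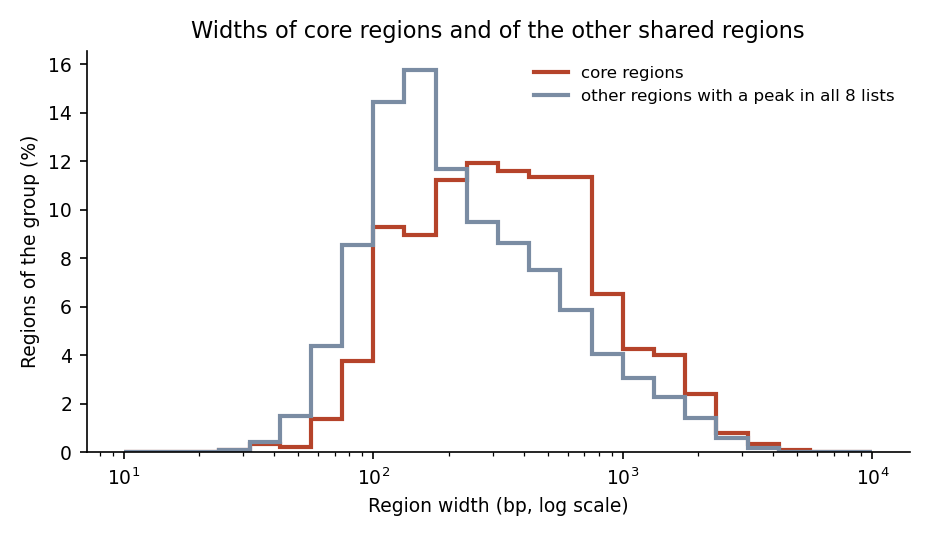
Distribution of region width in bp (log scale, x axis) as the percentage of core regions and of the other regions with a peak in all 8 lists (y axis). The core is shifted to greater widths, with medians of 346 and 198 bp.

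The width of core peaks showed no difference between conditions that passed adjustment. Their median width was 334.5 and 341 bp in C, 343 and 337 bp in A, 335.5 bp in both lists of D, and 342 and 336.5 bp in B. It averaged 338.9 ± 3.84 bp in C and A and 337.4 ± 3.12 bp in D and B (SD, n = 4 each; difference 1.5 bp, exact 2-sided permutation p = 0.629, adjusted p = 0.762). For C and D it was 336.6 ± 2.95 bp, and for A and B 339.6 ± 3.35 bp (SD, n = 4 each; difference −3 bp, exact permutation p = 0.171, adjusted p = 0.762). The mean width ranged from 484.6 bp in D2 to 492.2 bp in C2, with adjusted exact permutation p = 0.762 and 0.857 for the contrasts of C and A with D and B and of C and D with A and B. Adjustment was by Benjamini-Hochberg over 10 tests of widths and ends. With 4 lists against 4 the smallest p possible is 0.0286, which alone cannot pass after adjustment over 10 tests. The lack of a call therefore does not show that widths were alike. The test also takes the 2 lists of a pair as independent.

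Peak ends were the same to the base in most of the core. In 863 of the 872 regions every list had exactly 1 peak, and in 745 of these (86.3%) both the start and the end were identical in all 8 lists. Over all 10781 regions with 1 peak in every list the share was 79.1%, and over the 9918 of them outside the core it was 78.5% (7784 regions). The 5' end, counted on the strand of the peak, was identical in 816 core regions (94.6%) and the 3' end in 787 (91.2%). Outside the core the shares were 89.3% and 87.9%. Whether these ends coincide with ends of exons or transcripts was not analysed here.

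The share of peaks at the commonest end, the coordinate held by most of the 8 lists, was higher in the core than outside it in every list. For both ends together it averaged 93.8% ± 0.554 in the core and 89.5% ± 0.981 in the other regions with 1 peak in every list (SD over the same 8 lists). The difference was 4.32 percentage points, positive in 8 of 8 lists, with an exact 2-sided sign permutation p of 0.00781, the smallest that 8 lists can give (adjusted p = 0.00781 over 3 tests). For the 5' end it was 2.33 points (97.6% against 95.3%) and for the 3' end 2.18 points (96.0% against 93.9%), each with the same p and in 8 of 8 lists. The 8 lists share the commonest ends they are compared with. Regions with both ends identical in all 8 lists, 86.3% of the core and 78.5% of the others, add equally to every list. The 8 differences are therefore not independent, and the p-value does not measure the spread between regions. The sets also differ in score by construction.

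Ends were shared less often in wider regions, and the gap between the core and the other regions was present in each of the 3 width classes. Among regions up to 200 bp, 247 of 247 core regions had both ends identical in 8 lists, against 96.7% of 5063 others. Over 200 and up to 500 bp it was 301 of 328 (91.8%), against 72.0% of 2895. Over 500 bp it was 197 of 288 (68.4%), against 41.1% of 1960. In the share of peaks at the commonest ends the core was higher by 0.941 points in the narrow, 9.10 points in the middle and 17.8 points in the wide class (exact sign permutation p = 0.00781 in each, 8 of 8 lists). In the narrow class the core share was 100%, so its difference could not be negative and its p tests nothing. In the wider classes the p has the limit given above for all regions together. A varying end makes a joined region wider, so classes were also set by the median width of the 8 peaks. The shares with identical ends were then 100%, 87.5% and 72.4% in the core, against 96.3%, 68.7% and 44.8% in the others.

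**Figure D3:**
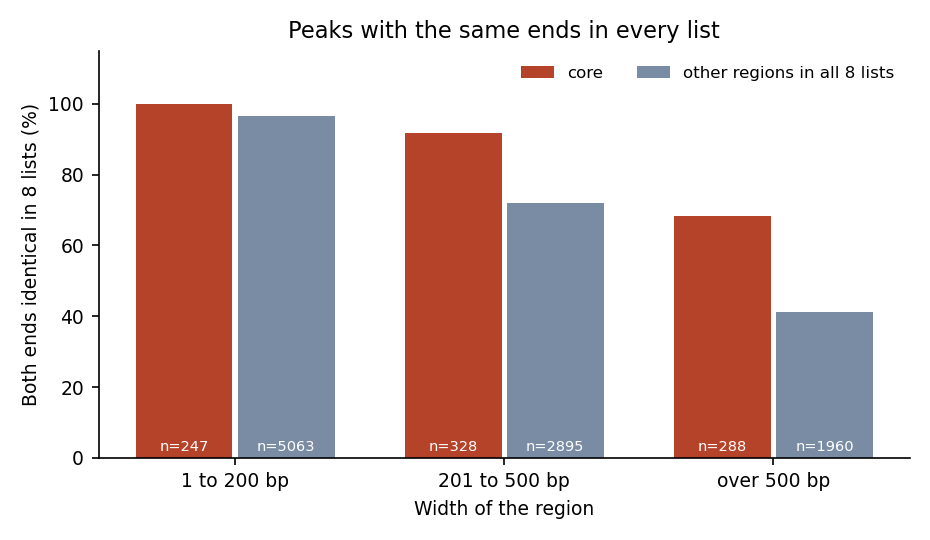
Percentage of regions with both peak ends identical in all 8 lists (y axis) in 3 classes of region width (x axis), for the core and for the other regions with 1 peak in every list, with the number of regions in each bar. The core stands at 100%, 91.8% and 68.4%, above the others at 96.7%, 72.0% and 41.1%.

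The narrowest core regions show how exact the shared ends were. They were chosen after their values were seen. A region on chromosome 12 at 105742380 to 105742404 (plus strand) was 25 bp wide in each of the 8 lists. On the same strand, another at 105761250 to 105761287 was 38 bp wide in each. Regions on chromosome 1 at 43159161 to 43159194 and on chromosome 19 at 18043824 to 18043857 (both plus strand) were 34 bp wide in each.

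Identical ends also occurred in wide regions. The joined region was over 2000 bp wide in 22 of the 872 core regions, against 150 of the other 10000 regions with a peak in all 8 lists. Of the 22, 6 had both ends the same in every list, which was not counted for the 150. The widest of the 6 was on chromosome 11 at 111953189 to 111955874 (plus strand), 2686 bp in each of the 8 lists. A region of 2330 bp lay on the plus strand of chromosome 17, from 36889529 to 36891858, and one of 2270 bp on the minus strand of chromosome 5, from 72742083 to 72744352. The plus strand of chromosome 19 held one of 2162 bp, from 13882935 to 13885096. The last 2 were on minus strands, from 65485144 to 65487280 of chromosome 11 (2137 bp) and from 98992298 to 98994363 of chromosome 7 (2066 bp). None of the 6 changed by a single base between conditions or replicates. Of the slightly narrower regions with the same property, the next was 1977 bp wide and ran from 172377712 to 172379688 on the plus strand of chromosome 5. It was followed by regions of 1963 bp on the minus strand of chromosome 19, from 18390504 to 18392466, and of 1955 bp on the plus strand of chromosome 1, from 160183212 to 160185166.

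Of the 10 widest core regions, 8 had the same 5' end in every list and 3 the same 3' end. The widest lay on chromosome 12 at 76419227 to 76423872 (minus strand). Its peak was 4646 and 4641 bp wide in C, 4614 and 4633 bp in A, 4646 and 4615 bp in D and 4646 bp in both lists of B, and only the 3' end moved, by up to 32 bp. The region on chromosome 4 at 15687859 to 15692070 (plus strand) was 4125 and 4040 bp wide in C, 4212 bp in both lists of A, 4119 and 4043 bp in D, and 4118 and 4166 bp in B. Here the 2 lists of A were widest and the pairs C, D and B overlapped. On chromosome 12 at 125396150 to 125399894 (minus strand) the peak was 3745 bp wide in 7 lists and 3678 bp in C2. On chromosome 22 at 21241967 to 21245501 (plus strand) it was 3505 and 3535 bp in C, 3535 bp in both lists of A, 3443 and 3504 bp in D, and 3528 and 3535 bp in B.

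An end varied in 118 of the 863 regions, and in 113 of these exactly 1 end moved while the other was identical in all 8 lists. The 3' end alone varied in 71 regions, the 5' end alone in 42 and both in 5 (4.24% of the varying regions). Outside the core both ends moved in 127 of 2134 varying regions (5.95%), a difference that was not tested. Regions with a varying end were wider, with a median of 779 bp against 282 bp for those with both ends identical, and the narrowest of them was 232 bp. The distance between the outermost and innermost 3' end had a median of 128 bp and a range of 1 to 2315 bp over the 76 regions in which it varied. For the 47 varying 5' ends the median was 140 bp and the range 2 to 1054 bp. The spread exceeded 100 bp in 41 of the 3' and 26 of the 5' ends.

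In the 10 core regions with the largest spread, 9 kept 1 end in place. The largest was on chromosome 20 at 32667716 to 32670486 (plus strand), where the 5' end was fixed and the peak was 456 and 2771 bp wide in C, 523 bp in both lists of A, 767 bp in both lists of D, and 851 and 806 bp in B. A and D each gave a single width, and the 2 lists of C were the narrowest and the widest of all 8. On chromosome 5 at 151123998 to 151126010 (minus strand) the peak was 522 and 1418 bp wide in C, 370 and 369 bp in A, 2013 and 542 bp in D, and 1946 and 441 bp in B. Replicates differed here more than pairs did, except in A.

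On chromosome 2 at 201342359 to 201345078 (plus strand) the width was 1233 and 1185 bp in C, 1407 and 1177 bp in A, 2645 and 1314 bp in D, and 2720 and 1372 bp in B. D1 and B1 reached about the full region while the rest stopped near its middle, and the same 2 lists were the widest on chromosome 5. On chromosome 12 at 14927270 to 14929360 (plus strand) it was 1102 and 1070 bp in C, 2083 and 1013 bp in A, 1140 and 1626 bp in D, and 2091 and 1642 bp in B. On chromosome 22 at 43013849 to 43015951 (minus strand) the peak was 2103 bp wide in A1 and 1376 bp in A2. It was 1226 and 1267 bp wide in C, 1178 and 1207 bp in D, and 1231 and 1293 bp in B. Again the replicates of A parted, though both were wider than every list of the other pairs. Both lists of D were narrower than every list of the other pairs.

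The 5' end moved instead in 3 of the 10. On chromosome 5 at 176732501 to 176735063 (minus strand) the peak was 2563 bp wide in C1, C2, A2, D2 and B1, 2217 bp in B2, 1607 bp in A1 and 1509 bp in D1. On chromosome X at 49031151 to 49032614 (minus strand) it was 1464 bp wide in 6 lists, 639 bp in D1 and 656 bp in B1. On chromosome 14 at 104378847 to 104380321 (minus strand) it was 1475 bp in A2 and 487 to 775 bp in the others. D1 and B1, the widest on chromosomes 5 and 2 above, were thus the narrowest on chromosome X, while a list of A stood out on chromosome 14. On chromosome 7 at 6523106 to 6524701 (plus strand) both ends varied, with widths of 853 and 1024 bp in C, 824 and 672 bp in A, 867 and 698 bp in D, and 1586 and 782 bp in B. The last of the 10, on chromosome 13 at 21751051 to 21753220 (plus strand), had widths of 2067 and 2123 bp in C, 2116 and 2128 bp in A, 1570 and 2059 bp in D, and 1876 and 2170 bp in B.

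**Figure D4:**
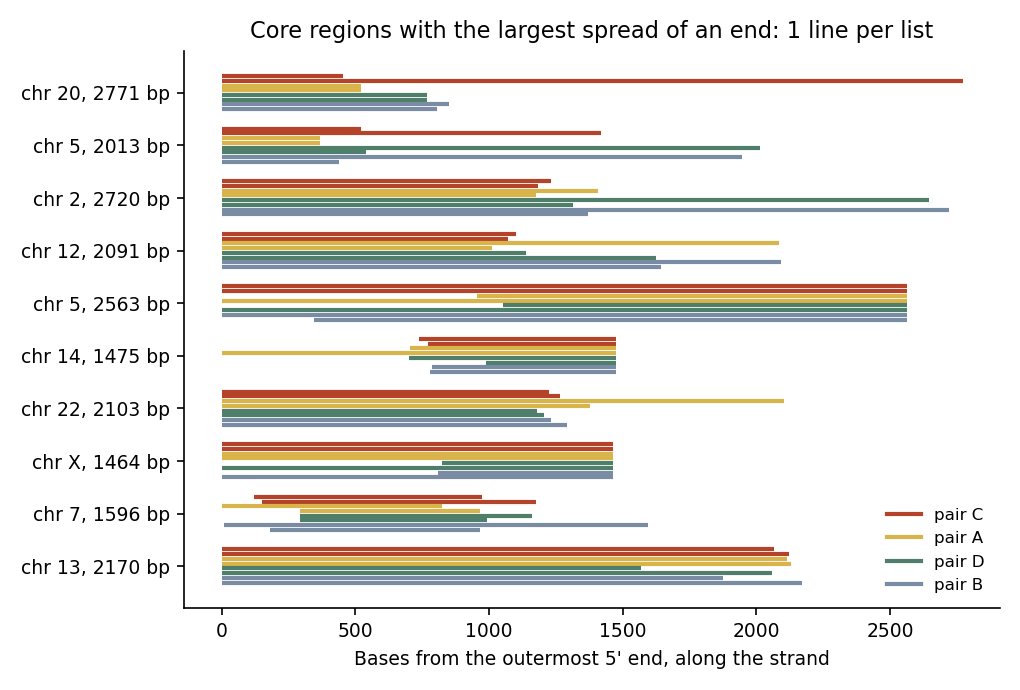
The 10 core regions with the largest spread of an end, each drawn as 8 lines, 1 per list, in the order C1, C2, A1, A2, D1, D2, B1, B2 from top to bottom, against the distance in bases from the outermost 5' end (x axis). In 9 of the 10 regions 1 end is aligned in all 8 lines, and the other end varies within pairs as well as between them.

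How alike the ends were depended little on which 2 lists were compared. Over the 28 pairs of lists, both ends agreed in 90.0% to 92.5% of the 863 core regions. Between replicates the mean was 91.8% (4 pairs of lists, 90.6% to 92.2%). It was 91.3% between C and A or D and B, 91.0% between C and D or A and B, and 90.9% between lists that differed in both (8 pairs of lists each). The highest value, 92.5%, was between lists of different pairs. Outside the core the 28 values ran from 84.0% to 87.2%, with a mean of 86.4% between replicates. D1 and D2 had the lowest mean agreement with the other 7 lists in the core (90.5% and 90.6%) and outside it (84.5% and 84.7%).

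The share of core peaks at the commonest ends showed no difference between conditions that passed adjustment, with the limit given for widths. For both ends it was 93.4% and 94.8% in C, 93.5% and 94.0% in A, 93.2% and 93.5% in D, and 93.7% and 94.4% in B. C and A averaged 93.9% ± 0.631, and D and B 93.7% ± 0.538 (SD, n = 4 each; exact permutation p = 0.686, adjusted p = 0.762). C and D averaged 93.7% ± 0.729, and A and B 93.9% ± 0.396 (SD, n = 4 each; exact permutation p = 0.686, adjusted p = 0.762). For the 5' and the 3' end alone the exact permutation p over both contrasts was 0.314 to 0.571, with adjusted p = 0.762 throughout.

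Core regions whose ends separated the conditions completely were few. An end of every list of C and A lay on one side of every list of D and B in 5 of 863 core regions (0.579%), against 0.955% of all 10781 regions with 1 peak in every list. The same held for C and D against A and B in 4 core regions (0.463%), against 0.529% of all. Both shares are near or under those of all regions.

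In 4 of these 5 regions the peaks of C and A reached further out at the end that differed, against 72 of 99 such ends outside the core. On chromosome 3 at 150263839 to 150264964 (minus strand) the peak was 1126 bp wide in all 4 lists of C and A, against 1087 bp in both lists of D and 1038 and 983 bp in B. On chromosome 19 at 34859276 to 34860072 (plus strand) its 3' end was the same in the 4 lists of C and A and lay 39 and 41 bp further inside in D and 72 and 266 bp further inside in B. The 5' end moved by up to 13 bp there. On chromosome 13 at 28195474 to 28196146 (plus strand) the width was 673 and 662 bp in C and 648 and 673 bp in A, against 596 and 430 bp in D and 377 and 579 bp in B. A region on chromosome 19 at 5903623 to 5904007 (minus strand) was likewise wider at its 5' end in C and A, by 38 bp on average. The one on chromosome 7 at 96746580 to 96747209 (plus strand) was narrower there, with 346 and 343 bp in C and 342 and 317 bp in A, against 563 and 630 bp in D and 367 and 366 bp in B.

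Of the 4 that separated C and D from A and B, 3 differed at the 3' end. On chromosome 17 at 79852343 to 79852715 (plus strand) the peak was 373 bp wide in all 4 lists of C and D, against 356 bp in both lists of A and 357 and 354 bp in B. On chromosome 5 at 133746241 to 133746773 (minus strand) it was 531 bp in both lists of C and 533 bp in both lists of D, with the 3' end 2 bp inside the outermost one in C and at it in D, against 76 and 33 bp inside it in A and 21 and 83 bp in B. B1 came nearest to C and D. On chromosome 4 at 667369 to 668941 (plus strand) it was shorter, with 1215 and 1218 bp in C and 1269 and 1185 bp in D, against 1301 bp in both lists of A and 1280 and 1573 bp in B. On chromosome 21 at 34775354 to 34775922 (plus strand) the 5' end differed, with widths of 317 and 272 bp in C and 270 bp in both lists of D, against 380 and 551 bp in A and 518 and 569 bp in B.

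Shortened 3' ends were counted against the median end of the 8 lists. The 3' end was more than 20 bp short of it in 19 and 14 core regions in C, 16 and 28 in D, 10 and 12 in A, and 10 and 11 in B. Every list of C and D lay above every list of A and B, with means of 19.3 ± 6.18 and 10.8 ± 0.957 (SD, n = 4 each). The exact 2-sided permutation p was 0.0286, but the adjusted p over the 8 tests of shifted ends was 0.229. The measure was chosen after the data were seen. Outside the core the same counts overlapped, with 232 and 170 in C, 386 and 359 in D, 242 and 222 in A, and 162 and 192 in B (exact permutation p = 0.257, adjusted p = 0.533). At a margin of 0 bp the core difference shrank to 5.75 regions and at 50 bp to 2.5, and without D2 it was 4.75. Without A1, A2, B1 or B2 the difference was 5.17 to 7.83 regions (exact permutation p of 0.0857 to 0.257). Without C1, C2, D1 or D2 the difference was 4.75 to 9.58 regions, with an exact permutation p of 0.0286 in each. The adjusted p of these was 0.114 to 0.229.

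**Figure D5:**
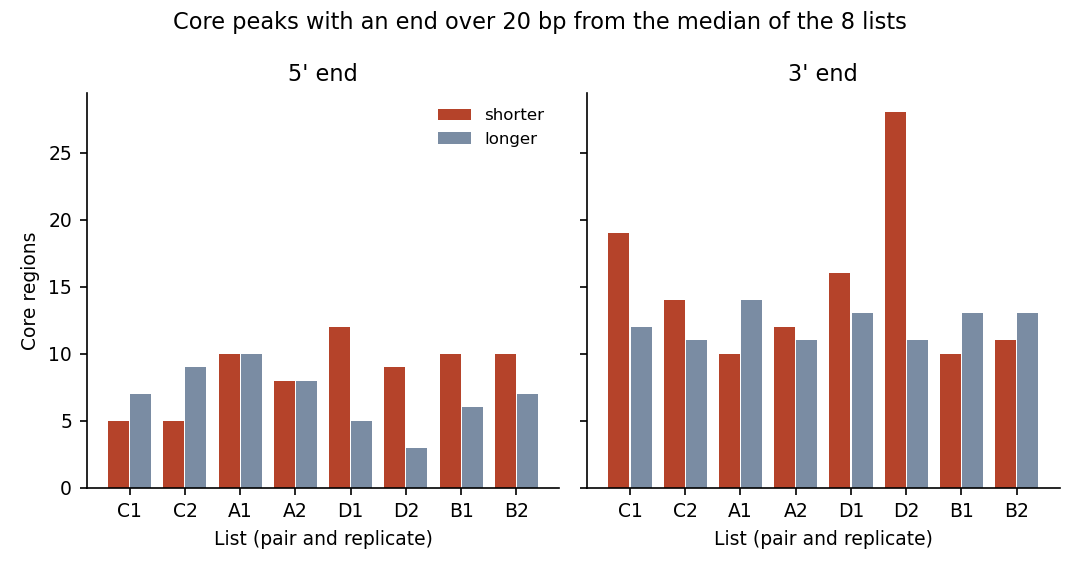
Number of core regions (y axis) in which a list's 5' end (left) or 3' end (right) lay more than 20 bp inside (shorter) or outside (longer) the median end of the 8 lists, for each list (x axis). The 3' ends were short most often in D2, with 28 regions, and in 14 to 19 regions in C1, C2 and D1, against 10 to 12 in A and B.

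Where a single list broke from 7 that agreed, its peak was nearly always the shorter one and came most often from D. This held for 22 of the 3' ends and 11 of the 5' ends in the core. D supplied 14 of the 22 (63.6%), of which 13 were shorter, and 6 of the 11, all shorter. Outside the core D supplied 112 of 241 such 3' ends (46.5%) and 107 of 269 5' ends (39.8%). D held 2 of the 8 lists. Over all peaks D covered 6.70 and 6.98 Mb and B 6.95 and 7.15 Mb, less than the lists of C and A, and the part of list length or depth in this was not tested.

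More than 1 peak in some list was found in 9 core regions (1.03%), against 82 of the 10000 other regions with a peak in all 8 lists (0.82%). In all 9 the number of peaks differed between the replicates of at least 1 pair. On chromosome 1 at 93297917 to 93299217 (plus strand), 7 lists had 2 peaks and B2 a single one of 1301 bp. The gap between the 2 peaks was 494 and 22 bp in C, 157 and 222 bp in A, 96 and 135 bp in D and 163 bp in B1. On chromosome 19 at 5894686 to 5896586 (minus strand) and at 33076722 to 33078293 (plus strand), C2 alone had a single peak, of 1901 and 1572 bp, and in the other lists gaps of 349 to 742 bp and 287 to 552 bp split it. In these 3 regions the split was thus the rule and the joined peak the exception.

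On chromosome 4 at 152024023 to 152025357 (plus strand) the single peak of 1335 bp was in C1, and the gap ran from 5 bp in B2 to 549 bp in D2. A region on chromosome 19 at 54710144 to 54711515 (plus strand) had a single peak of 1355 bp in C1, A1 and A2, while C2 and all lists of D and B had 2 peaks with gaps of up to 276 bp. On chromosome 17 at 40985428 to 40986393 (plus strand) the second peak, where it was separate, had a score of 19.9 in C1, 237.38 in D1 and 290.26 in B2. There the top score belonged to 1 of the 2 peaks alone.

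Core regions lay on all 24 chromosomes of the lists, in uneven shares. Chromosome 19 held 110 of them, 12.6% of the core, while it held 7.71% of the regions with a peak in all 8 lists. Of its 838 such regions 13.1% were core. The share was 11.6% on chromosome 22, 11.3% on chromosome 20, 11.2% on chromosome 5 and 10.7% on chromosome 12. It was lowest on chromosomes 13 (6 of 221, 2.71%) and 15 (9 of 319, 2.82%), followed by chromosome 10 (4.03%). These shares describe the regions of 8 lists from 1 cell line and were not tested.

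Part of the core came in runs along a strand. Within 5000 bp of another core region on the same strand lay 236 of the 872 (27.1%), and joining over such gaps gave 742 loci. Counted against any region with a peak in all 8 lists, 397 core regions (45.5%) had a neighbour within that distance, against 39.98% of the other 10000. This difference was not tested. There were 86 runs of 2 regions, 16 of 3 and 4 of 4, the longest. Of the 130 gaps within runs, with a median of 2648 bp, 114 held no other region of any list and 16 did. Most gaps within runs thus held no other region, and the same share was not counted for gaps between other regions.

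In the 4 longest runs all 16 regions had both ends identical in every list. The same held for 86.3% of all core regions with 1 peak in every list, and for 100% of those up to 200 bp. On the minus strand of chromosome 6 the run lay between 13799065 and 13807276, with regions of 72, 102, 104 and 120 bp. On the plus strand of chromosome 19, between 36139542 and 36149686, the regions were 254, 117, 101 and 191 bp wide. These were narrow regions set 853 to 4578 bp and 2339 to 3922 bp apart. The run on the minus strand of chromosome 12, between 123745517 and 123756687, had regions of 834, 130, 297 and 577 bp, and that on the minus strand of chromosome 20, between 62119365 and 62127388, had 414, 257, 297 and 180 bp.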

How the data were processed

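The authors deposited 1 list of peaks for each of 8 samples, with hg19 start, end, strand and a score whose unit is not stated. Peak names begin with MACS, per the files. The submitters' processing notes name cutadapt 1.9.3, HISAT2 2.0.4 and hg19, and no source used here gives the caller's version, control or threshold. The score was used only to choose regions. Coordinates are counted from 1, so 1 was added to each start.

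From these lists regions, widths and end positions in bp were computed per list, with Python 3.11.15, numpy 2.4.6 and pandas 2.3.3, and figures with matplotlib 3.10.9. Ties of the commonest end went to the outermost coordinate. Lists were compared by exact 2-sided permutation, and the rest of the processing was tested on simulated lists. Regions are named by fixed rules (widest, largest spread, widest with identical ends, most peaks, longest runs, separated ends, nearest to the threshold), from which examples are given. The members and rules were chosen with earlier results of these data known. No hg19 annotation or sequence was used here, so regions carry no gene names and gene lists were not counted. Alternatives of score, overlap, strand, tolerance, width and replicates were tried.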

Additional observations from a re-analysis of the deposited data

Results flagged for a closer look

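Among 60 sets of 4 lists, a single list lay far from the other 3 in 5. The flag is set to mark about 1 in 20 sets of independent values. These sets share lists and some hold tied counts, so that rate may not apply here. The median width of core peaks was 342 bp in B1, apart from the other lists of D and B, and 341 bp in C2, apart from the other lists of C and D. The share of core peaks at the commonest 5' end was 96.9% in A1, under the other lists of A and B. The number of core regions with a 3' end over 20 bp longer than the median end was 11 in D2, under the 13 of each other list of D and B. It was also 11 in C2 and A2. The number with a 5' end over 20 bp shorter was 8 in A2, under the 10 of A1, B1 and B2. In both counts the other 3 lists were tied, so any difference would be flagged.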

How the results depend on the processing

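The number of core regions was 872 in the main setting, 895 at a score of 3000, 869 with an overlap of 50% of the shorter peak, 874 with strand ignored and 872 with the best-scored 8% of each list. Leaving out 1 list gave 879 to 918 regions. Leaving out a pair (914 to 1032) and requiring a score of exactly 3100 (843) were added after the data were seen. At a score of 3200 the number was 0, since 1890 to 2243 peaks per list sit at exactly 3100. The higher share of peaks at the commonest ends in the core, 4.32 points, kept its direction under all 18 alternatives, with differences of 0.941 to 17.8 points. The adjusted exact permutation p was 0.00781 to 0.0156, in each case the smallest that the number of lists allowed. The lists share the commonest ends, so these p-values add no separate support. In regions up to 200 bp the core share was 100%, so the direction there was fixed. None of the 10 differences between conditions in widths or commonest ends passed an adjusted p of 0.05 under any alternative. So few lists could hardly pass it, however. Without C2, the share at the commonest 3' end in C and D against A and B had an exact permutation p of 0.0286, the smallest possible. Its adjusted p was still 0.286, so the lack of a call does not show that conditions were alike. Leaving out 1 list turned the sign of some of the 10 differences, the median width of C and A minus D and B running from −0.625 to 2.17 bp. Same-numbered lists of D and B deviated together (r of 0.604), but same-numbered lists did not do so throughout. Over 6 comparisons of pairs in 118 core regions r ran from −0.173 to 0.604, with 2 over 0.1. These r use deviations in bp over regions. Regions with a large spread, such as those where D1 and B1 stood out together, therefore weigh most. Whether the replicate numbers pair the lists is therefore not settled. With the replicate number as a block the smallest p possible is 0.125, and the adjusted exact permutation p was 0.875 for all 10 differences and 0.5 for the shortened 3' ends. Depth is unknown, and 8 lists in 4 pairs limit every comparison.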
